A study of Mus musculus with 15 samples.

Results

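Genes of the interferon response and of class I antigen presentation were examined in 3 stable lines of hippocampal neural precursor cells that differ in the stress-responsive transcription factor they overexpress. The 35 genes were chosen by name, as receptors and transcription factors of interferon signalling, RNA sensors, antiviral effectors, the ISG15 system with other induced proteins, and the class I presentation machinery. All 35 matched an identifier among the 55416 genes of the count table. In all, 31 passed a filter on low counts and were tested among 18244 genes. The other 4 (Trim25, Oas1a, Mx1 and Bst2) were at or near 0 in all lines and are given by their counts.

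The cells were cultured from the hippocampus of 6-week-old female mice, of a strain that the labels do not give, and each line carries a piggyBac insertion with a Tet-On transactivator behind an SV40 promoter and puromycin resistance. The Atf3 line and the Atf4 line also hold the coding sequence of Atf3 or of Atf4 behind the TRE3G promoter, which responds to doxycycline, and the control line has the cassette with neither. EGF and FGF were withdrawn to start differentiation, 100 ng/ml of doxycycline was given to all 3 lines at that point, and RNA was taken at 10 h. Each line had 5 libraries, and with 1 line per construct the transgene and the line cannot be told apart.

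Type I interferons signal through the receptor chains Ifnar1 and Ifnar2 to a complex that includes Stat2 and Irf9 and binds interferon-stimulated response elements and switches on antiviral genes. Interferon gamma signals through Ifngr1 and Ifngr2 and raises Irf1, Nlrc5 and the genes of class I antigen presentation. Neural stem cells are known to hold some antiviral genes at a basal level without interferon, and class I molecules are generally low in neural cells.

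Each library held 53.7 to 69.6 M counts. Levels are CPM, counts per 1 M of a library's TMM-scaled total, as mean ± SD with n = 5 per line unless single libraries are listed, in the order of replicates 1 to 5. Atf3 transcript was at 1941 ± 119.5 CPM in the Atf3 line, 1.40 ± 0.306 in the Atf4 line and 5.02 ± 4.10 in the control line. Atf4 was at 250.3 ± 16.5 CPM in the Atf3 line, 153 ± 21.7 in the Atf4 line and 83.2 ± 6.75 in the control line. On the first principal component of all tested genes the Atf3 libraries lay at 30.2 to 40.3, the Atf4 libraries at 1.01 to 22.1 and the control libraries at -48.7 to -42.8, and Atf4 replicate 5 was the Atf4 library nearest to the Atf3 line. The precursor markers were Sox2, Nes, Vim, Fabp7, Pax6, Egfr and Hes5. They summed to 3837 to 3952 CPM in the Atf3 libraries, 3542 to 3675 in the Atf4 libraries and 3361 to 3575 in the control libraries. These markers did not move together. Fabp7 and Nes were higher in both lines than in control, and Vim, Egfr and Hes5 lower (adjusted p by edgeR under 0.05). Pax6 was higher in the Atf4 line only, and Sox2 differed in neither at that threshold. Fabp7 averaged 1228, 882 and 543 CPM and Hes5 1.04, 3.32 and 11.2 CPM in the Atf3, Atf4 and control lines. The 10 markers of microglia and other immune cells, mostly Cd68, summed to 3.91 to 5.01 CPM in the Atf3 libraries, 2.74 to 3.14 in the Atf4 libraries and 3.16 to 4.10 in the control libraries, with C1qa and Tyrobp at 0 counts in every library. Cd68 averaged 2.91, 2.01 and 2.62 CPM in the Atf3, Atf4 and control lines. Tmem119 was lower in Atf3 and Atf4 cells than in control (adjusted p by edgeR = 3.46e-05 and 0.000504). P2ry12 was higher in both (adjusted p by edgeR = 7.79e-06 and 0.0405). Their means were 0.0941, 0.151 and 0.537 CPM for Tmem119 and 1.07, 0.619 and 0.437 CPM for P2ry12, in the same order of lines. The summed levels of 5 endothelial markers, mostly Kdr, were 12.4 to 18.5, 18.4 to 21.5 and 44.8 to 49.1 CPM in the Atf3, Atf4 and control libraries. Within that list Tek ran the other way, at 5.23, 3.58 and 1.95 CPM on average. The sums of 3 neuron markers, mostly Tubb3, were 14.3 to 18.3, 32.2 to 52.7 and 84.3 to 89.0 CPM, while Dcx averaged 0.553, 0.389 and 1.06 CPM and Rbfox3 0.282, 0.191 and 0.259 CPM in the same order of lines. The sums of 3 astrocyte markers, mostly Gfap, were 61.5 to 69.3, 66.0 to 85.7 and 132 to 157 CPM in the same order of lines. Of them 2 were called lower in the Atf3 line and all 3 in the Atf4 line. The sums of 3 oligodendrocyte markers, mostly Olig2, were 1070.4 to 1377, 1054 to 1207 and 1223 to 1466 CPM. Those of 5 mural and fibroblast markers were 0.400 to 0.747, 0.473 to 0.610 and 0.685 to 0.899 CPM. Only Col1a1 of these was tested, with means of 0.266, 0.416 and 0.690 CPM. Rgs5 ran the other way, at 0.160, 0.0590 and 0.0404 CPM, and Dcn averaged 0.0879, 0.0299 and 0.0487 CPM. Pdgfrb and Lum averaged at most 0.0190 CPM in any line. The other 2 oligodendrocyte markers, Sox10 and Mbp, were under 1 CPM and lower in both lines, with log2 fold changes in Atf3 and Atf4 cells of -2.72 and -1.88 for Sox10 and -2.31 and -1.22 for Mbp (adjusted p by edgeR = 0.000107, 0.0013, 8.69e-06 and 0.00179). The part of such cells in the results below was not tested, and in bulk RNA fewer cells of a type and less RNA per cell cannot be told apart.

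Promoter windows of 300 bases, from 250 before to 50 after the annotated start, were on hand for 26 of the 35 genes from RefSeq on GRCm38.p6. The letters GAAA, 2 bases of any kind and GAAA again, a core of the interferon-stimulated response element, were looked for on both strands. They stood in the windows of 11 of the 26 genes (42.3%), namely B2m, Bst2, Ddx58, Ifih1, Ifit1, Ifit3, Irf2, Isg15, Oas1a, Rsad2 and Stat2, against 3.99% of all 27025 genes with a window. The letters TTCNNNGAA, a core of the gamma-activated site, stood in 7 of 26 (26.9%, against 9.55% of all genes) and overlapped the other motif in 1, Bst2. TGACGTCA, the cyclic AMP response element that ATF and CREB factors bind, stood in 0 of the 26 windows and in 2.03% of all genes, which says only that these letters are not in these windows. A match is a description of letters, not a bound site. Of the windows with the core of the interferon-stimulated response element, 4 are shown so that the letters can be set beside the levels below. They belong to the genes with the largest fitted changes against control among genes with a match. Among genes that changed more than Irf2, Mx2, Parp14 and Usp18 had no window, and Irf7 and Oasl2 had a window without a match. Capitals mark the match on either strand. It starts 120 bases before the annotated start in Rsad2, 104 and 85 before it in Ifit1 and 241 before it in Irf2, and 32 bases after it in Ifih1.
Rsad2 (GRCm38.p6, chr12:26456403-26456702, minus strand): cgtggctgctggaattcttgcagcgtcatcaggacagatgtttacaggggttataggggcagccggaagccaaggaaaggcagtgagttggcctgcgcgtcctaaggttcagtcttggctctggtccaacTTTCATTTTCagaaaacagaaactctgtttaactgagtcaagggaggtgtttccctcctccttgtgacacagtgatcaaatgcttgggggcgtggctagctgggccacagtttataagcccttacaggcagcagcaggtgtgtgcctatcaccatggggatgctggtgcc
Ifit1 (GRCm38.p6, chr19:34640639-34640938, plus strand): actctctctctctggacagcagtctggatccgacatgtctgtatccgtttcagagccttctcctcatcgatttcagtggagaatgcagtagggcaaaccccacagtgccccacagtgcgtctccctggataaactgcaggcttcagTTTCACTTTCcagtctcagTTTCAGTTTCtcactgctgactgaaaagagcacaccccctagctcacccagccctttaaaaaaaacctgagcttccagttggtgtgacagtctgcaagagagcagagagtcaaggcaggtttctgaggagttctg
Ifih1 (GRCm38.p6, chr2:62646206-62646505, minus strand): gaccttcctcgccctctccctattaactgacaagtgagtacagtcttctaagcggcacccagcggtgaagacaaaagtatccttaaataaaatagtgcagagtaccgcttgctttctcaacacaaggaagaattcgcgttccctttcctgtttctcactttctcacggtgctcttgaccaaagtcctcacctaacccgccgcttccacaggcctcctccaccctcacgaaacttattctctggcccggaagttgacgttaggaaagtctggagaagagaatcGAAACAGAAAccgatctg
Irf2 (GRCm38.p6, chr8:46739495-46739794, plus strand): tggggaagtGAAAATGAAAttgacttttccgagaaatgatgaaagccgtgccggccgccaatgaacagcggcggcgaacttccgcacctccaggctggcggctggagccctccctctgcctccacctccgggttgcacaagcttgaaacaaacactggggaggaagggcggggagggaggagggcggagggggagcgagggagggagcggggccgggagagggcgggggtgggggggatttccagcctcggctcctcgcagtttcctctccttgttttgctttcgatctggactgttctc

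Expression without overexpressed factor was uneven across the 35 genes. Per length, as CPM per kilobase of exon in the control line, B2m was highest at 229 ± 6.72, followed by H2-D1 at 24.2 ± 0.914 and Ifnar1 at 22.6 ± 0.475, and the control libraries of these 3 genes did not overlap. Ifi27, Irf3 and Ifngr1 came next at 17.9 ± 0.569, 14.9 ± 0.749 and 13.5 ± 0.371. Tapbp, H2-K1, Ifit2, Stat2, Tap1 and Rsad2 were at 4.39 to 9.83. Most classical interferon-stimulated genes lay far lower on the same per-length scale: Isg15 at 1.51 ± 0.148, Mx2 at 1.14 ± 0.0769, Irf7 at 0.713 ± 0.0264, Ifit3 at 0.269 ± 0.0856, Ifit1 at 0.0893 ± 0.0340 and Oasl2 at 0.0678 ± 0.0184. Of 8 interferon genes 7, among them Ifnb1 and Ifng, had 0 counts in all 15 libraries, and Ifnk had at most 3 counts in a library. A count of 0 allows up to 3 counts, or 0.0421 to 0.0558 CPM by library, and covers counting error only.

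The first comparison, Atf3 over control, asks which of these genes differ where Atf3 is overexpressed. Rsad2, Mx2, Irf7 and Parp14 were lower by 2.47-fold to 5.23-fold, and the sensor genes Ifih1 and Ddx58 and the ISG15 protease gene Usp18 were lower by less. The interferon regulatory factors Irf1, Irf2 and Irf3 were higher, by 1.14-fold to 1.52-fold. In all, 5 of the 31 tested genes were called higher and 15 lower (edgeR quasi-likelihood test, Benjamini-Hochberg adjusted over all genes, adjusted p under 0.05), or 20 of 31 (64.5%). Across all genes tested 73.2% were called, 36.8% higher and 36.3% lower. Without control replicate 2 the count of higher genes was 3. Libraries of both lines did not overlap in 16 of the 31 genes, with Atf3 above in 4 and below in 12, against 60.7%, 32% and 28.7% of all genes tested.

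The second, Atf4 over control, shares its control libraries with the first. Rsad2, Mx2, Irf7 and Parp14 were lower here too, by 1.58-fold to 2.68-fold, and Isg15, Ifi27, H2-D1, H2-K1, Tap1, Nlrc5, Irf1 and Ifi35 were higher, by 1.10-fold to 1.46-fold. That is 8 higher and 11 lower of 31, or 19 called (61.3%), against 61.6% of all genes tested, 31.9% higher and 29.7% lower. Libraries of both lines did not overlap in 13 genes, with Atf4 above in 5 and below in 8, against 47.9%, 26.1% and 21.8% of all genes tested.

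The Atf4 line was also set directly against the Atf3 line, which tests whether both responses differ. Here 13 of the 31 genes were higher in the Atf4 line and 2, Irf2 and Irf3, were lower. Across all genes tested 43.6% were called, 19.7% higher and 23.9% lower in the Atf4 line. Isg15 and Irf7 had the largest differences, at 2.02-fold and 2.46-fold. The libraries of both lines did not overlap in 12 genes, with Atf4 above in 10 and below in 2, against 25.8%, 9.52% and 16.3% of all genes tested.

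**Figure D1:**
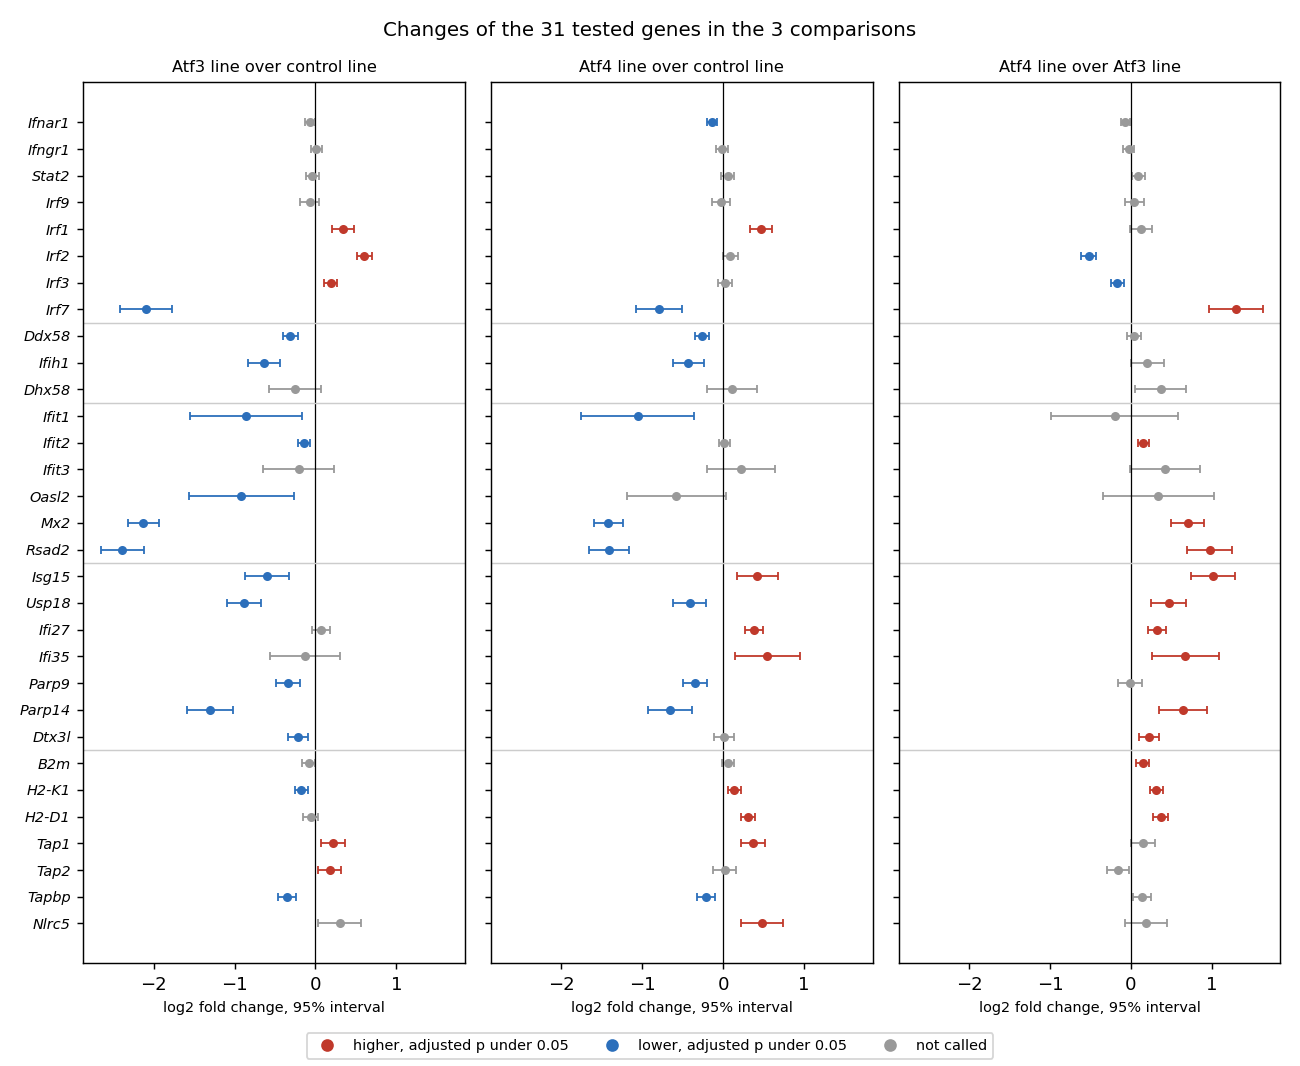
Log2 fold change of each tested gene with 1.96 standard errors to either side on the horizontal axis for the Atf3 line over control, the Atf4 line over control and the Atf4 line over the Atf3 line, with genes ordered by role. Irf7, Mx2, Rsad2 and Parp14 lie left of 0 in both comparisons with control and right of 0 between the lines, and Isg15 lies left of 0 in the Atf3 line and right of 0 in the Atf4 line.

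Low genes as a whole differed between the lines, so the 31 genes were read beside all genes of like mean CPM. Among the 15 genes at 10 CPM or more the median log2 fold change in the Atf3 line was -0.06, against 0.12 for all 9951 genes at that level. There 4 were higher and 4 lower, against 51.8% and 31.5% of all such genes. Among the 12 genes at 1 to 10 CPM the median was -0.62, against -0.17 for all 3706 genes, with 9 lower and 1 higher, against 45% and 27%. The 4 genes under 1 CPM had a median of -0.53, against -0.41 for all 4587 genes, with 2 lower and 0 higher, against 39.8% and 12.4%.

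In the Atf4 line the medians by level were closer to those of all genes. They were 0.02 and 0.06 at 10 CPM or more for the listed genes and all genes, -0.38 and -0.07 at 1 to 10 CPM, and -0.18 and -0.20 under 1 CPM. At 1 to 10 CPM 7 of the 12 were lower and 3 higher, against 34.5% and 25.7% of all genes. At 10 CPM or more 3 of 15 were lower and 4 higher, against 29.6% and 44%, and under 1 CPM 1 of 4 was lower and 1 higher, against 26.2% and 10.7%. Between the lines, Atf4 over Atf3, the medians were 0.10 and -0.05 at 10 CPM or more, 0.42 and 0.11 at 1 to 10 CPM, and 0.38 and 0.21 under 1 CPM. At 10 CPM or more 5 were higher and 2 lower, against 17.8% and 36.4% of all such genes. At 1 to 10 CPM 7 were higher and 0 lower, against 28.7% and 13.3%, and under 1 CPM 1 was higher and 0 lower, against 16.5% and 5.52%.

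**Figure D2:**
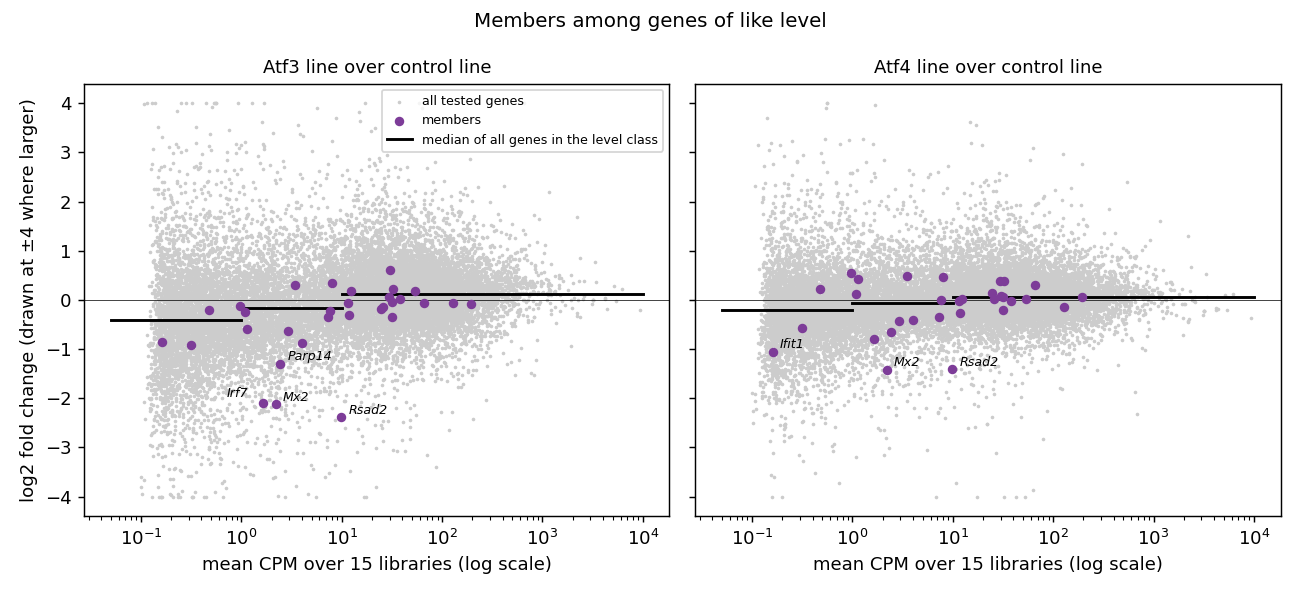
Log2 fold change against control (vertical axis) over mean CPM across the 15 libraries (horizontal log axis) for all 18244 tested genes in grey and the 31 listed genes in purple, with bars at the median of all genes in each of the 3 level classes. Rsad2, Mx2, Irf7 and Parp14 sit well below the bar of the class at 1 to 10 CPM in the Atf3 line, where that bar is at -0.17.

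Of the 8 receptors and regulators, 3 rose and 1 fell in the Atf3 line, and 1 rose and 2 fell in the Atf4 line. Among all genes tested 36.8% were called higher and 36.3% lower in the Atf3 line, and 31.9% and 29.7% in the Atf4 line. The receptor chain Ifnar1 was at 128 ± 3.98 CPM in the Atf3 line, 122 ± 2.64 in the Atf4 line and 134 ± 2.82 in the control line. Its fall in the Atf4 line was called (log2 fold change -0.13 ± 0.03 SE, adjusted p by edgeR = 0.00073), and the Atf3 line missed the threshold (adjusted p by edgeR = 0.0518, but 1.71e-05 to 0.45 over the alternatives, of which 17 of 24 call it). Ifngr1, a chain of the interferon gamma receptor, was at 38.7 ± 1.44, 38.0 ± 1.24 and 38.4 ± 1.06 CPM in the Atf3, Atf4 and control lines. Stat2 and Irf9, parts of the complex that type I interferon activates, were not called in any comparison. For Atf3 over control, 2 of 24 alternatives called Stat2 lower (adjusted p by edgeR = 0.398, 0.00301 to 0.922 over the alternatives). In the same comparison 3 of 24 called Irf9 lower (adjusted p by edgeR = 0.273, 0.00674 to 0.634 over the alternatives). For Stat2 the 95% interval of the log2 difference from control was -0.12 to 0.04 in the Atf3 line and -0.02 to 0.14 in the Atf4 line. For Atf4 over Atf3 the Stat2 interval was 0.01 to 0.18 (adjusted p by edgeR = 0.068, called in 6 of 24 alternatives, 0.0066 to 0.231). For Irf9 against control it was -0.19 to 0.04 in the Atf3 line and -0.14 to 0.09 in the Atf4 line.

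The interferon regulatory factors did not move together. Irf2 (ENSMUSG00000031627; GRCm38 chromosome 8, 46739732 to 46847458, plus strand), a factor that can restrain interferon-stimulated transcription, had 39.9, 38.8, 39.7, 35.5 and 38.8 CPM in the Atf3 libraries, 26.0, 26.4, 26.9, 25.7 and 29.6 CPM in the Atf4 libraries and 25.5, 26.7, 24.1, 24.0 and 26.4 CPM in the control libraries. All Atf3 libraries were above all others, and the Atf4 and control libraries overlapped. It was 1.52-fold higher in Atf3 than in control cells (0.61 ± 0.05 SE, adjusted p by edgeR = 1.28e-09) and lower for Atf4 over Atf3 (-0.52 ± 0.05 SE, adjusted p by edgeR = 3.11e-07).

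Irf1 (ENSMUSG00000018899; GRCm38 chromosome 11, 53770014 to 53778374, plus strand), an activator that interferon gamma induces, had 9.56, 7.90, 8.17, 8.26 and 8.02 CPM in the Atf3 libraries, 8.71, 9.98, 8.63, 9.22 and 9.17 CPM in the Atf4 libraries and 6.29, 6.51, 6.54, 6.28 and 7.44 CPM in the control libraries. Every Atf3 and every Atf4 library was above every control library. Irf1 was higher by 0.34 ± 0.07 SE in the Atf3 line (adjusted p by edgeR = 0.000187) and by 0.47 ± 0.07 SE in the Atf4 line (adjusted p by edgeR = 7.88e-06), on the log2 scale. Irf3, which RNA and DNA sensors activate, was at 58.6 ± 2.71 CPM in the Atf3 line, 52.2 ± 1.83 in the Atf4 line and 51.4 ± 2.58 in the control line. It rose in the Atf3 line (0.19 ± 0.04 SE, adjusted p by edgeR = 0.000459), a call that ended with upper-quartile scaling (0.07, adjusted p by edgeR = 0.122; 9.89e-05 to 0.122 over all alternatives).

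Irf7 (ENSMUSG00000025498; GRCm38 chromosome 7, 141262706 to 141266481, minus strand), the factor that amplifies type I interferon production, moved the other way. It is described in full although its place among the regulators by p-value did not call for it, and was singled out after its values were seen. It had 0.795, 0.509, 0.422, 0.763 and 0.665 CPM in the Atf3 libraries, 1.95, 1.71, 1.56, 1.45 and 1.06 CPM in the Atf4 libraries and 2.71, 2.72, 2.74, 2.77 and 2.52 CPM in the control libraries. The 3 lines did not overlap. The count of Irf7 reads was 24 to 43 per Atf3 library, 59 to 126 per Atf4 library and 152 to 187 per control library. Irf7 was 4.27-fold lower in Atf3 than in control cells (-2.09 ± 0.16 SE, adjusted p by edgeR = 1.41e-09) and 1.73-fold lower in the Atf4 line (-0.79 ± 0.15 SE, adjusted p by edgeR = 0.000111). Between the lines it was higher in the Atf4 line (1.30 ± 0.17 SE, adjusted p by edgeR = 1.09e-05).

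Of the 3 cytosolic RNA sensors tested, 2 fell in each line. Against control, 36.3% of all genes tested were lower with Atf3 and 29.7% with Atf4. Being only 3 genes, the sensors do not show whether their class differs from that background. Ddx58 (ENSMUSG00000040296; GRCm38 chromosome 4, 40203773 to 40239828, minus strand) encodes RIG-I, which detects viral RNA ends. It had 10.9, 11.1, 10.6, 11.1 and 10.6 CPM in the Atf3 libraries, 11.2, 12.1, 11.2, 10.9 and 10.6 CPM in the Atf4 libraries and 13.4, 13.3, 13.9, 13.3 and 13.4 CPM in the control libraries. Every control library lay above every other library. Its fall was -0.31 ± 0.04 SE in the Atf3 line (adjusted p by edgeR = 5.03e-06) and -0.27 ± 0.04 SE in the Atf4 line (adjusted p by edgeR = 4.22e-05). Ifih1, encoding the long double-stranded RNA sensor MDA5, was at 2.35 ± 0.209 CPM in the Atf3 line, 2.70 ± 0.263 in the Atf4 line and 3.64 ± 0.446 in the control line, lower in both (-0.63 ± 0.10 SE and -0.43 ± 0.10 SE, adjusted p by edgeR = 1.63e-05 and 0.000994).

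Dhx58, encoding the regulatory helicase LGP2, had 0.906, 0.964, 0.650, 1.34 and 0.860 CPM in the Atf3 libraries, 1.30, 1.40, 1.28, 0.945 and 1.13 CPM in the Atf4 libraries and 1.22, 1.13, 0.967, 1.13 and 1.17 CPM in the control libraries. All 3 lines overlapped, and no comparison was called. The nearest was the Atf4 line over the Atf3 line (0.37 ± 0.16 SE, adjusted p by edgeR = 0.0748, called in 4 of 24 alternatives, 0.00959 to 0.2). Atf3 over control was called in 2 of 24 alternatives (adjusted p by edgeR = 0.168, 0.0223 to 0.424 over the alternatives). Trim25, the ubiquitin ligase that acts on RIG-I, had 0 to 2 counts per Atf3 library, 0 to 2 per Atf4 library and 0 to 3 per control library, and was not tested.

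Of the 6 antiviral effectors tested, 5 fell in Atf3 cells, 3 fell in Atf4 cells, and 0 rose in either. Over all genes tested, 36.3% were lower and 36.8% higher in the Atf3 line, and 29.7% and 31.9% in the Atf4 line. Rsad2 (ENSMUSG00000020641; GRCm38 chromosome 12, 26442746 to 26456452, minus strand) encodes viperin, an enzyme that blocks viral replication, and its window above holds 1 match. It had 3.51, 4.09, 3.14, 3.83 and 3.59 CPM in the Atf3 libraries, 9.46, 7.86, 6.77, 7.12 and 4.33 CPM in the Atf4 libraries and 19.8, 19.5, 18.6, 19.2 and 18.1 CPM in the control libraries. The 3 lines did not overlap, and Atf4 replicate 5 was the Atf4 library nearest to the Atf3 line. Rsad2 was 5.23-fold lower in the Atf3 line (-2.39 ± 0.14 SE, adjusted p by edgeR = 1.75e-11) and 2.67-fold lower in the Atf4 line (-1.41 ± 0.13 SE, adjusted p by edgeR = 1.96e-08) than in control. The Atf4 line was 1.96-fold above the Atf3 line (0.97 ± 0.14 SE, adjusted p by edgeR = 2.53e-05).

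Mx2 (ENSMUSG00000023341; GRCm38 chromosome 16, 97535308 to 97560900, plus strand) belongs to the interferon-induced dynamin-like GTPases and is annotated as a polymorphic pseudogene, intact in some mouse strains. It had 0.998, 0.892, 0.914, 1.01 and 0.893 CPM in the Atf3 libraries, 1.78, 1.49, 1.53, 1.30 and 1.56 CPM in the Atf4 libraries and 3.87, 3.88, 4.01, 4.52 and 4.24 CPM in the control libraries. Again the 3 lines did not overlap. Mx2 was 4.37-fold lower in the Atf3 line (-2.13 ± 0.10 SE, adjusted p by edgeR = 1.09e-12) and 2.68-fold lower in the Atf4 line (-1.42 ± 0.09 SE, adjusted p by edgeR = 2.29e-10). Its neighbour and relative Mx1 had 0 to 2 counts per Atf3 library, 2 to 6 per Atf4 library and 5 to 10 per control library and was not tested. The Mx genes share sequence, so how reads divide between them is uncertain.

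**Figure D3:**
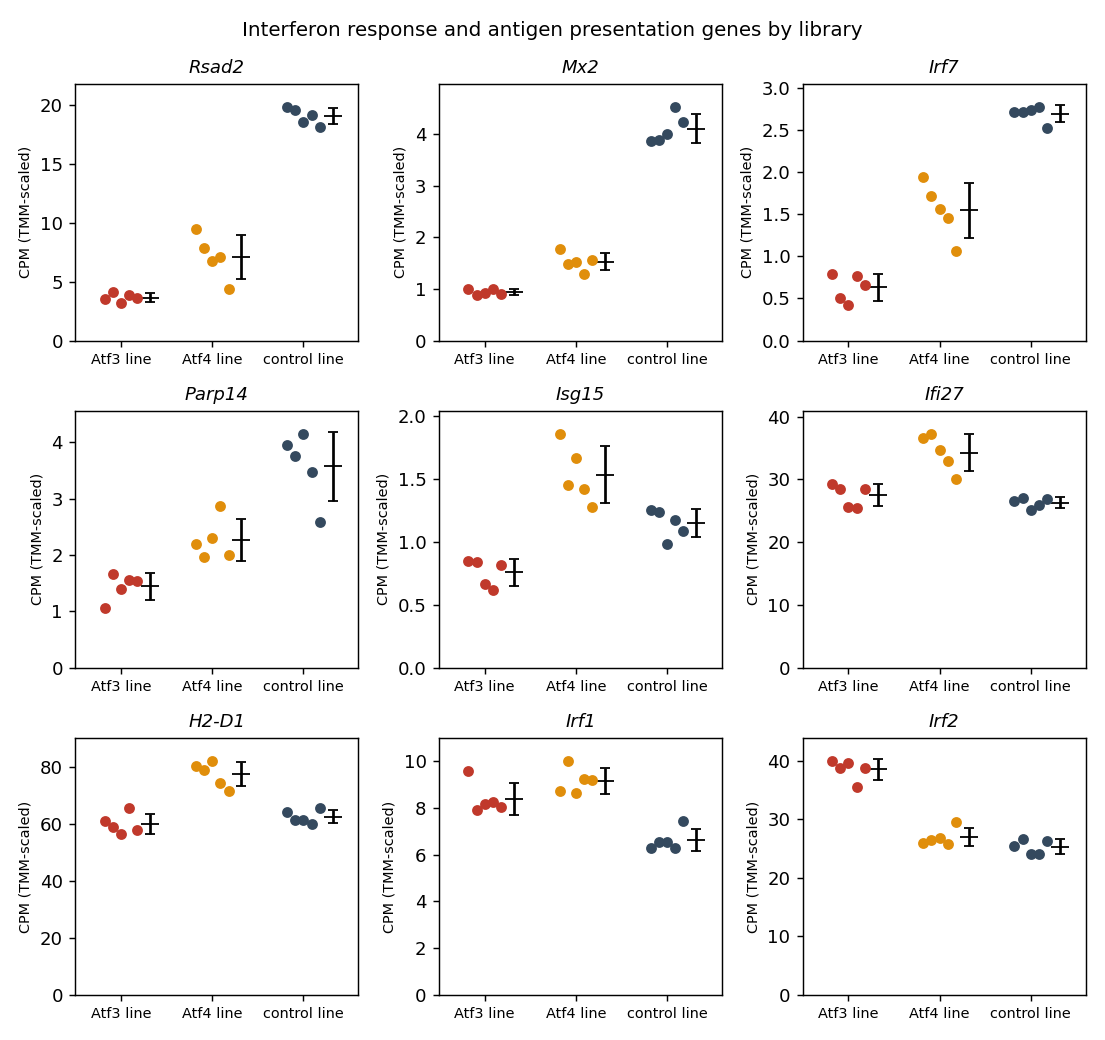
CPM (vertical axes, from 0) of 9 of the genes in each library of the Atf3, Atf4 and control lines, with dots for replicates 1 to 5 from left to right and bars for the mean ± SD of 5 libraries. Rsad2, Mx2 and Irf7 are lowest in all Atf3 libraries and highest in all control libraries, while Isg15, Ifi27 and H2-D1 are highest in the Atf4 libraries.

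The Ifit genes, which encode proteins that bind foreign RNA and stand side by side on chromosome 19, differed in level. Ifit2 was at 24.1 ± 1.01 CPM in the Atf3 line, 26.9 ± 0.536 in the Atf4 line and 26.6 ± 0.308 in the control line, while Ifit1 and Ifit3 stayed under 1 CPM in every library. Ifit2 was lower in the Atf3 line (-0.14 ± 0.04 SE, adjusted p by edgeR = 0.00179), a call that ended with no filter on low counts (adjusted p by edgeR = 0.0657; 3.03e-06 to 0.0657 over all alternatives). Ifit1 was at 0.132 ± 0.0543 CPM in the Atf3 line, 0.115 ± 0.0440 in the Atf4 line and 0.237 ± 0.0903 in the control line, from 3 to 22 counts per library. It was called lower in both lines (adjusted p by edgeR = 0.0359 and 0.015), with overlap of the libraries. The Ifit1 call in the Atf3 line ended without Atf3 replicate 1, 4 or 5 or control replicate 3, 4 or 5, left out singly (adjusted p by edgeR = 0.0571 to 0.0942; 0.00632 to 0.245 over all alternatives). Without control replicates 4 and 5 together, its change was -0.56 in Atf3 cells and -0.76 in Atf4 cells, and neither was called (adjusted p by edgeR = 0.245 and 0.14; 0.00257 to 0.14 over all alternatives in the Atf4 line). Ifit3 was called in no comparison, although each Atf4 library lay above each Atf3 library (0.548 ± 0.0686 and 0.407 ± 0.0625 CPM, adjusted p by edgeR = 0.127).

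Other effectors were scarce, and the Ifit and Oas families have near copies, so how their reads divide is uncertain. Oasl2, of the oligoadenylate synthetase family, was at 0.231 ± 0.120 CPM in the Atf3 line, 0.286 ± 0.101 in the Atf4 line and 0.432 ± 0.117 in the control line. It was called lower in the Atf3 line (-0.92 ± 0.33 SE, adjusted p by edgeR = 0.0184), but not without Atf3 replicate 4 or 5 (adjusted p by edgeR = 0.0507 and 0.057; 0.00437 to 0.0601 over all alternatives). Oas1a, an oligoadenylate synthetase that double-stranded RNA activates, had at most 8 counts per Atf3 library, 5 per Atf4 library and 9 per control library. Bst2, encoding tetherin, which holds budding virus at the cell surface, had 0 to 15 counts per Atf3 library, 2 to 13 per Atf4 library and 0 to 5 per control library.

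Of the 7 genes of the ISG15 system and other induced proteins, 5 fell and 0 rose in the Atf3 line. In the Atf4 line 3 fell and 3 rose. The shares of all genes tested were 36.3% lower and 36.8% higher in the Atf3 line, and 29.7% and 31.9% in the Atf4 line. Isg15 (ENSMUSG00000035692; GRCm38 chromosome 4, 156199424 to 156200818, minus strand), a ubiquitin-like protein, had 0.850, 0.837, 0.668, 0.614 and 0.812 CPM in the Atf3 libraries, 1.85, 1.45, 1.67, 1.42 and 1.27 CPM in the Atf4 libraries and 1.25, 1.23, 0.984, 1.17 and 1.08 CPM in the control libraries. The 3 lines did not overlap. Isg15 was 1.51-fold lower in the Atf3 line (-0.60 ± 0.14 SE, adjusted p by edgeR = 0.000902) and 1.34-fold higher in the Atf4 line (0.42 ± 0.13 SE, adjusted p by edgeR = 0.00867) than in control. The direct difference, Atf4 over Atf3, was 1.02 ± 0.14 SE (adjusted p by edgeR = 1.33e-05). Isg15 counts were 33 to 120 per library.

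Usp18, which removes ISG15 from proteins and dampens type I interferon signalling, was at 2.84 ± 0.324 CPM in the Atf3 line, 3.92 ± 0.640 in the Atf4 line and 5.23 ± 0.282 in the control line. It was lower in both (-0.88 ± 0.11 SE and -0.41 ± 0.10 SE, adjusted p by edgeR = 6.14e-07 and 0.00213). Every control library lay above every Atf3 and Atf4 library.

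Ifi27 (ENSMUSG00000064215; GRCm38 chromosome 12, 103434211 to 103440239, plus strand), a small interferon-induced membrane protein, had 29.3, 28.5, 25.7, 25.5 and 28.5 CPM in the Atf3 libraries, 36.5, 37.2, 34.8, 32.8 and 30.0 CPM in the Atf4 libraries and 26.5, 27.1, 25.0, 25.9 and 26.9 CPM in the control libraries. The Atf4 libraries lay above all others, and the Atf3 and control libraries overlapped. It was 1.30-fold higher in Atf4 than in control cells (0.38 ± 0.06 SE, adjusted p by edgeR = 9.28e-06). Ifi35, an interferon-induced leucine zipper protein, was at 0.781 ± 0.259 CPM in the Atf3 line, 1.24 ± 0.260 in the Atf4 line and 0.852 ± 0.186 in the control line, and shares 16.8% of its exon bases with another gene. Its call in the Atf4 line (0.54 ± 0.21 SE, adjusted p by edgeR = 0.0285) ended without Atf4 replicate 1, 3 or 4 or control replicate 3 or 4, left out singly (adjusted p by edgeR = 0.0542 to 0.0928; 0.0132 to 0.109 over all alternatives).

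The 3 neighbours on chromosome 16, within GRCm38 positions 35832874 to 35972605, encode the ADP-ribosyltransferases Parp14 and Parp9 and Dtx3l, the ubiquitin ligase partner of Parp9. Parp14 (ENSMUSG00000034422) had 1.05, 1.66, 1.41, 1.56 and 1.54 CPM in the Atf3 libraries, 2.19, 1.97, 2.31, 2.87 and 1.99 CPM in the Atf4 libraries and 3.95, 3.76, 4.15, 3.47 and 2.58 CPM in the control libraries. The Atf3 libraries lay below all others, and control replicate 5 fell within the Atf4 range. Parp14 was 2.47-fold lower in the Atf3 line (-1.30 ± 0.15 SE, adjusted p by edgeR = 1.85e-07) and 1.58-fold lower in the Atf4 line (-0.66 ± 0.14 SE, adjusted p by edgeR = 0.000419). Parp9 was lower to a similar size in both lines (-0.34 ± 0.08 SE and -0.35 ± 0.08 SE, adjusted p by edgeR = 0.000586 and 0.000587), and its Atf4 over Atf3 difference had a 95% interval of -0.16 to 0.14. Dtx3l was lower in the Atf3 line (-0.22 ± 0.06 SE, adjusted p by edgeR = 0.00524) and not called in the Atf4 line (adjusted p by edgeR = 0.918). Parp9 and Dtx3l start head to head and share 9.40% and 8% of their exon bases, which counts without strand cannot divide.

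Of the 7 class I antigen presentation genes, 4 rose and 1 fell in the Atf4 line against control, beside 31.9% and 29.7% of all genes tested. In the Atf3 line 2 rose and 2 fell, beside 36.8% and 36.3% of all genes. For Atf4 over Atf3, 3 were higher and 0 lower, beside 19.7% and 23.9% of all genes. H2-D1 (ENSMUSG00000073411; GRCm38 chromosome 17, 35262730 to 35267499, plus strand), a heavy chain that displays peptides, had 60.9, 59.0, 56.4, 65.4 and 57.8 CPM in the Atf3 libraries, 80.2, 78.8, 81.9, 74.3 and 71.6 CPM in the Atf4 libraries and 64.3, 61.3, 61.3, 59.9 and 65.5 CPM in the control libraries. The Atf4 libraries stood above all others, and the Atf3 and control libraries overlapped. H2-D1 was 1.24-fold higher in Atf4 than in control cells (0.31 ± 0.05 SE, adjusted p by edgeR = 9.15e-06) and 1.29-fold higher than in the Atf3 line (0.37 ± 0.05 SE, adjusted p by edgeR = 5.14e-06).

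The other heavy chain, H2-K1, was at 21.7 ± 0.557 CPM in the Atf3 line, 27.0 ± 0.876 in the Atf4 line and 24.6 ± 1.25 in the control line. It was lower in the Atf3 line (-0.18 ± 0.04 SE, adjusted p by edgeR = 0.000766) and higher in the Atf4 line (0.14 ± 0.04 SE, adjusted p by edgeR = 0.0068). The Atf4 call ended without control replicate 4 (adjusted p by edgeR = 0.0566; 0.00451 to 0.0968 over all alternatives), and with upper-quartile scaling the change was 0.08. Heavy-chain genes are near copies of each other and vary between strains, so how their reads divide is uncertain. B2m, the light chain, was at 186 ± 8.44, 205 ± 10.9 and 197 ± 5.78 CPM in the Atf3, Atf4 and control lines and was called for Atf4 over Atf3 (0.15 ± 0.04 SE, adjusted p by edgeR = 0.00689) and not in either line against control (adjusted p by edgeR = 0.0689 for Atf3, called in 11 of 24 alternatives, and 0.193 for Atf4).

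Among the peptide loading genes, Tapbp (ENSMUSG00000024308; GRCm38 chromosome 17, 33915899 to 33929292, plus strand), encoding tapasin, had 27.1, 28.3, 26.8, 30.6 and 27.0 CPM in the Atf3 libraries, 34.3, 31.5, 31.6, 29.6 and 26.6 CPM in the Atf4 libraries and 37.1, 34.3, 35.8, 34.9 and 36.2 CPM in the control libraries. The Atf3 libraries lay below all control libraries, and Atf4 replicate 1 reached the control range. Tapbp fell in both lines, with log2 fold changes of -0.35 ± 0.06 SE in Atf3 cells (adjusted p by edgeR = 1.75e-05) and -0.21 ± 0.06 SE in Atf4 cells (adjusted p by edgeR = 0.00271), and shares 29.0% of its exon bases with other genes.

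The peptide transporter gene Tap1 went the opposite way, at 32.9 ± 3.47 CPM in the Atf3 line, 36.6 ± 3.26 in the Atf4 line and 28.2 ± 2.57 in the control line (0.22 ± 0.08 SE and 0.38 ± 0.08 SE, adjusted p by edgeR = 0.0141 and 3e-04). Its call in the Atf3 line ended without control replicate 2 or 3 (adjusted p by edgeR = 0.0563 and 0.0714; 0.00173 to 0.238 over all alternatives), and upper-quartile scaling gave 0.10. Its partner Tap2 was at 13.2 ± 0.549 CPM in the Atf3 line, 11.8 ± 1.63 in the Atf4 line and 11.7 ± 0.275 in the control line, and shares 18.5% of its exon bases with other genes. The rise of Tap2 in the Atf3 line (0.18 ± 0.07 SE, adjusted p by edgeR = 0.0334) was lost in 12 of 24 alternatives. They included leaving out Atf3 replicate 1 or 4, Atf4 replicate 2 or 3 or any 1 control library (adjusted p by edgeR = 0.0512 to 0.101; 0.00313 to 0.485 over all alternatives). Nlrc5, the transactivator of class I genes, was at 3.51 ± 0.591, 4.00 ± 0.775 and 2.86 ± 0.265 CPM in the Atf3, Atf4 and control lines, called in the Atf4 line (0.49 ± 0.13 SE, adjusted p by edgeR = 0.00382) and not in the Atf3 line (adjusted p by edgeR = 0.0519; 0.0171 to 0.229 over the alternatives).

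**Figure D4:**
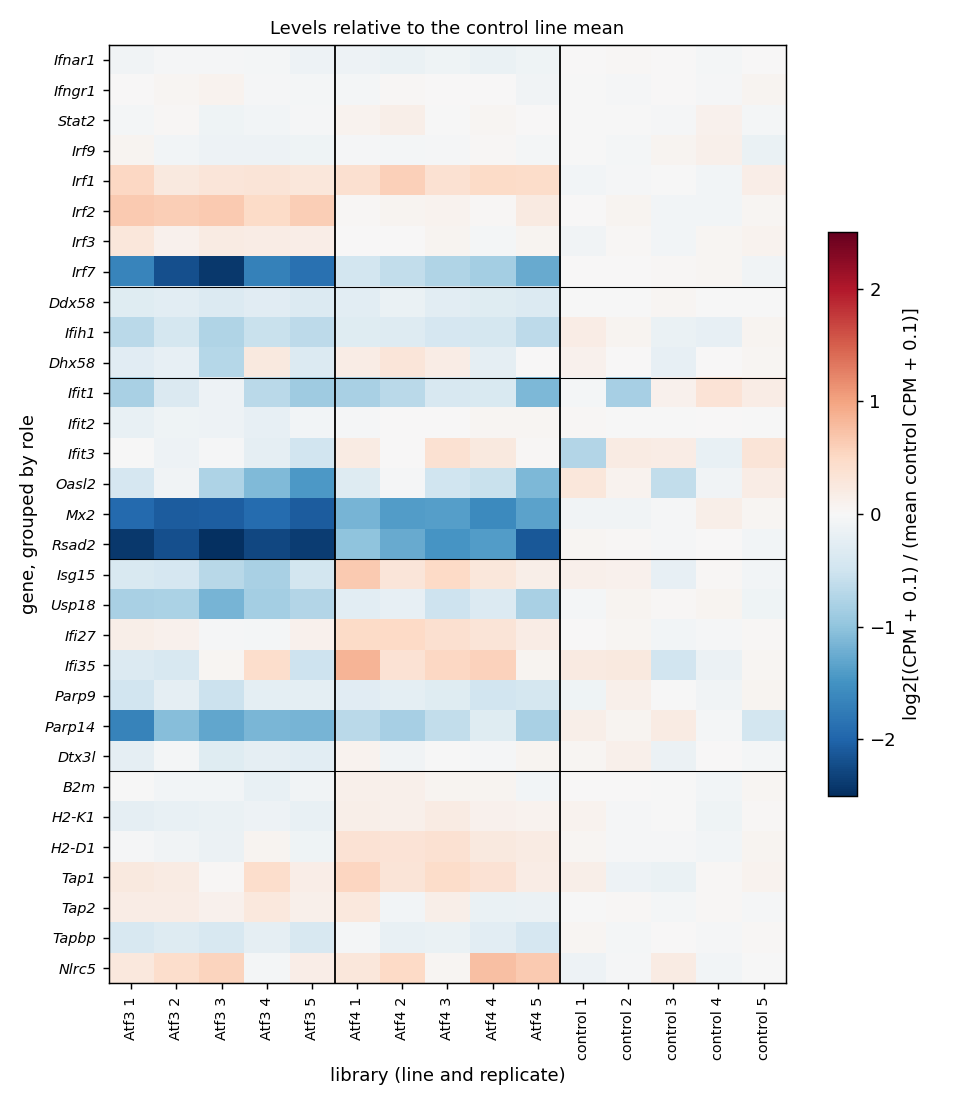
Level of each tested gene (rows, by role) in each library (columns, by line and replicate) as log2 of (CPM + 0.1) over (mean control CPM + 0.1), with blue below and red above the control mean. Rsad2, Mx2 and Irf7 are dark blue in the Atf3 libraries, and Rsad2 is nearly as dark in Atf4 replicate 5, which is bluer than the other Atf4 libraries for Rsad2 and Irf7.

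Further genes of both pathways came from lists written by role. Of 52 genes of the wider interferon pathway 41 were tested, with 14 higher and 17 lower in the Atf3 line and 13 higher and 8 lower in the Atf4 line against control. These were 75.6% and 51.2% called, against 73.2% and 61.6% of all genes tested. Their median log2 fold changes were -0.12 and 0.01, against -0.02 and -0.00085 for all genes tested. The membrane antiviral gene Ifitm3 rose in both lines, at 44.4 ± 1.51 CPM in the Atf3 line, 35.9 ± 1.21 in the Atf4 line and 14.1 ± 0.592 in the control line (1.65 ± 0.04 SE and 1.34 ± 0.04 SE, adjusted p by edgeR = 2.62e-15 and 9.32e-14). Tmem173, encoding the DNA-sensing adaptor STING, rose to 37.6 ± 3.61 CPM in the Atf3 line, against 5.46 ± 0.453 in the control line, and rose in the Atf4 line as well, to 19.8 ± 5.21 CPM (adjusted p by edgeR = 3.01e-12 in Atf3 and 1.75e-09 in Atf4 cells). Lgals3bp, a secreted scavenger receptor family protein, rose in both, to 7.46 ± 0.640 CPM in Atf3 cells and 8.12 ± 0.962 CPM in Atf4 cells, against 3.11 ± 0.283 CPM in control (adjusted p by edgeR = 4.57e-10 and 3.11e-10).

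Cmpk2, an interferon-induced nucleotide kinase, fell in both lines (-0.62 ± 0.07 SE in Atf3 and -0.31 ± 0.07 SE in Atf4 cells, adjusted p by edgeR = 1.36e-07 and 0.000476). Among guanylate-binding protein genes, Gbp2 fell to 11.3 ± 1.91 CPM in Atf3 cells and 6.47 ± 0.769 CPM in Atf4 cells, against 13.3 ± 0.410 CPM in control (adjusted p by edgeR = 0.0292 and 2.78e-08). Its Atf3 libraries, at 10.1 to 14.6 CPM, overlapped the control libraries, at 12.7 to 13.7 CPM. Gbp3 rose in both lines against control (adjusted p by edgeR = 5.35e-11 and 0.000514) and Gbp7 in the Atf3 line (adjusted p by edgeR = 8.65e-08; 0.885 in the Atf4 line), and both were lower for Atf4 over Atf3 (-0.92 ± 0.08 SE and -0.60 ± 0.06 SE, adjusted p by edgeR = 1.87e-07 and 1.05e-06). Irf8 and Oas1c fell in the Atf3 line against control (adjusted p by edgeR = 4.76e-05 and 0.00322), were not called in the Atf4 line (adjusted p by edgeR = 0.248 and 0.163) and were higher for Atf4 over Atf3 (0.80 ± 0.11 SE and 1.05 ± 0.20 SE, adjusted p by edgeR = 2.22e-05 and 0.000392). In that direct comparison 9 of the 41 were higher and 10 lower (46.3% called, against 43.6% of all genes).

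Of 18 further antigen presentation genes 16 were tested, with 7 higher and 5 lower in the Atf3 line, 6 higher and 4 lower in the Atf4 line, and 3 higher and 4 lower for Atf4 over Atf3. These were 75%, 62.5% and 43.8% called, against 73.2%, 61.6% and 43.6% of all genes tested. Psmb10, an immunoproteasome subunit, rose in both lines, to 22.8 ± 0.951 CPM in Atf3 cells and 16.1 ± 0.438 CPM in Atf4 cells, against 11.1 ± 0.838 CPM in control (adjusted p by edgeR = 2.2e-12 and 3.62e-08). The chaperone gene Canx also rose in both (0.57 ± 0.03 SE and 0.39 ± 0.03 SE, adjusted p by edgeR = 7.18e-12 and 3e-09). The class I heavy-chain gene H2-Q4 rose in both lines (0.62 ± 0.05 SE and 0.77 ± 0.05 SE, adjusted p by edgeR = 3.07e-09 and 3.46e-10). H2-Ab1, a class II chain, fell to 1.82 ± 0.445 CPM in Atf3 cells and 3.14 ± 0.629 CPM in Atf4 cells, against 6.56 ± 0.748 in the control line (adjusted p by edgeR = 2.85e-09 and 3.75e-06), and the class I-like gene H2-T23 was lower in both (-1.21 ± 0.18 SE and -0.88 ± 0.18 SE, adjusted p by edgeR = 8.57e-06 and 0.000275). Between the lines, Atf4 over Atf3, the immunoproteasome gene Psmb9, which fell in the Atf3 line against control (adjusted p by edgeR = 0.00242; 0.966 in the Atf4 line), was higher (0.45 ± 0.12 SE, adjusted p by edgeR = 0.00474) and the proteasome activator gene Psme2, which rose in the Atf3 line (adjusted p by edgeR = 7.52e-07; 0.394 in the Atf4 line), lower (-0.31 ± 0.04 SE, adjusted p by edgeR = 2.26e-05).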

How the data were processed

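RNA sequencing libraries were prepared from total RNA of 3 cell lines with the NEBNext Ultra kit and read as pairs of 150 bases, per the labels' protocols. The table that the authors deposited gives whole, unnormalized counts for each Ensembl gene. The submitters' processing notes name STAR, edgeR and the build mm10. For the tool versions, counting program, strand setting and annotation, the sources used here give nothing, and the kit does not mark strand. Symbols, positions and exon lengths came from GENCODE M21 on GRCm38, and 52083 of 55416 identifiers matched. CPM and CPM per kilobase were computed here from those counts.

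Genes were filtered with filterByExpr, scaled by TMM and fitted over all 15 libraries with 1 coefficient per line in edgeR 4.0.16 (R 4.3.3). Benjamini-Hochberg adjustment of p-values ran over 18244 genes. An SE is the absolute log2 fold change over the root of its F statistic, and an interval called 95% spans 1.96 SE to either side. That is the normal value, so these intervals are somewhat narrower than the test would give. Tap1 for Atf4 over Atf3, for example, has 0.005 to 0.302 with an unadjusted p by edgeR of 0.0576. The fit was tested on simulated data in which few genes changed, equally in both directions, unlike the many genes called in these data. That test does not cover the choice of scaling. Libraries of a line differed beyond sampling noise (chi-square over its degrees of freedom 5.47 to 53.4), and labels do not say that they were separate cultures, so p-values may measure technical spread.

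The 35 genes and all lists were chosen with earlier results of these data known. Genes given by library were those with the smallest adjusted p in each role and comparison, plus Irf7. Those of the wider lists were at most 2 per list, direction and comparison, and some genes are not reported here. Alternatives were RLE and upper-quartile scaling, DESeq2 1.42.0, voom of limma 3.58.1, other filters, only the lines compared, the replicate number as a block, and libraries left out. As single genes, only the 35 were followed under these alternatives, and calls of the wider lists were not. Of the 35 genes 14 share exon bases with another gene.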

Additional observations from a re-analysis of the deposited data

Results flagged for a closer look

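In 7 of 93 groups of 5 libraries, 1 library stood apart from the other 4, by a gap of more than 0.71 of the group's range, a level that chance reaches in about 1 group in 20. Atf3 replicate 1 was high for Irf9, at 12.6 CPM against 10.9 to 11.3 in the other Atf3 libraries, and for Irf1, at 9.56 against 7.90 to 8.26. For Irf1, control replicate 5 was high as well, at 7.44 CPM against 6.28 to 6.54. Irf2 was low in Atf3 replicate 4, at 35.5 CPM against 38.8 to 39.9, and Dtx3l was high in Atf3 replicate 2, at 7.64 against 6.47 to 6.76. Control replicate 5 was low for Irf7, at 2.52 CPM against 2.71 to 2.77, and control replicate 3 was high for Ddx58, at 13.9 against 13.3 to 13.4. Without the library named, each gene kept its calls against control.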

How the results depend on the processing

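Of 54 called changes of single genes, 49 had a value under all 24 alternatives, and 44 of them kept their call under all. The other 5, of Ifit1, Oasl2 and Ifi35, lacked a value under 1 or more, and 1 of them kept its call wherever it had one. No called change reversed in sign under the alternatives that gave it a value. With upper-quartile scaling 2 genes were called higher in the Atf3 line and with the filter at a mean of 1 CPM 3, in place of 5, while 22 and 18 were lower. Leaving out single libraries gave 3 to 6 higher and 13 to 17 lower in the Atf3 line, 6 to 8 higher and 11 lower in the Atf4 line, and 13 to 17 higher and 2 to 3 lower for Atf4 over Atf3. The median over the tested genes was -0.30 to -0.15 in the Atf3 line, -0.04 to 0.04 in the Atf4 line and 0.15 to 0.25 for Atf4 over Atf3. Upper-quartile scaling moved the median of all genes to -0.138 in the Atf3 line, with 5395 higher and 8106 lower in place of 6721 and 6630, and gave 5089 higher and 3017 lower for Atf4 over Atf3 in place of 3595 and 4363. It also moved several small changes by over 1.5 times, among them Irf1 (0.22), Ifit2 (-0.26), Dtx3l (-0.34) and H2-K1 (-0.30) in the Atf3 line and Irf3 for Atf4 over Atf3 (-0.10). The filter at 1 CPM gave 0.12 for Irf3, -0.21 for Ifit2, 0.15 for Tap1 and 0.10 for Tap2 in the Atf3 line. The cause was not tested. Of 39 changes that were not called, 16 were called under some alternative and 11 changed sign under some, with values of -0.11 to 0.05. Of the 16, 1 was called with its sign changed, Ifngr1 in Atf3 cells with upper-quartile scaling (-0.11, adjusted p by edgeR = 0.0128). With the replicate block the counts were 5 and 15, 8 and 11, and 13 and 2, as without it. The numbers did not pair the samples (correlations of same-numbered libraries' deviations -0.19 to 0.19, 1 of 5 libraries best matched by its own number in each comparison). Trim25, Oas1a, Mx1 and Bst2 did not pass the filter on low counts. With no filter, Mx1 was called lower in Atf3 cells and higher for Atf4 over Atf3 (adjusted p by edgeR = 0.000321 and 0.0221), Bst2 was called higher in Atf3 and in Atf4 cells than in control (0.0387 and 0.0449), and Trim25 and Oas1a were not called.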

Other observations

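Some libraries were lowest of their line for many of the 31 tested genes. Atf4 replicate 5 was the lowest Atf4 library for 17 of them (54.8%), against 31% of all genes tested, and Atf3 replicate 3 the lowest Atf3 library for 14 (45.2%), against 19.9%. No control library was lowest for more than 8 (25.8%). Without Atf4 replicate 5, 17 genes in place of 13 were called higher for Atf4 over Atf3 (edgeR). Calls over all genes rose as well, with 4008 of 18518 higher in that fit in place of 3595 of 18244.

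Several genes of the pathway that are often broadly expressed were at or near 0 here. Besides Trim25, Zc3hav1, encoding the antiviral protein ZAP, had at most 11 counts in a library and Sp100, a nuclear body protein, at most 3. These genes were picked after their values were seen. As the counting program and annotation are not given, low expression and reads left uncounted cannot be told apart for them.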
